A study of Mus musculus with 12 samples.

Results

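This account covers H3K9me3, the trimethylation of lysine 9 of histone H3, in mouse embryonic stem cells that carry a deletion in ALKBH5 and in wild-type (WT) cells. The material was chosen by assay: the 4 H3K9me3 peak lists among the 12 libraries of the series, 2 per genotype, restricted to chromosomes 1 to 19. All libraries came from E14TG2a, a mouse embryonic stem cell line, grown in DMEM with 15% serum, 1000 U/ml LIF, 1 µM PD0325901 and 3 µM CHIR99021, the last 2 being inhibitors of MEK and of GSK3. In the del-cIDR cells ALKBH5 lacks its intrinsically disordered region at the C-terminal end, and the WT cells carry no labelled change. H3K9me3 was profiled by CUT&RUN, in which an antibody-tethered nuclease releases the chromatin around the mark, while the H3K4me3 and H3K27ac libraries of the series were made by CUT&Tag. The labels do not say how many clones the del-cIDR line represents, or whether the libraries of a genotype came from separate cultures, so the spread between them may be technical. Neither the deletion nor the cell type could be checked at marker genes, because no gene annotation of the genome build was used.

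H3K9me3 is a mark of heterochromatin. In embryonic stem cells SETDB1, recruited through TRIM28 by KRAB zinc-finger proteins, deposits it on endogenous retroviruses and other repeats, and the SUV39H enzymes deposit it on the satellite repeats beside the centromeres. ALKBH5 removes N6-methyladenosine from RNA, and that modification on retroviral transcripts has been linked to SETDB1 recruitment through the reader YTHDC1. The series asks whether disordered regions restrain where such demethylases act on the genome, and the H3K9me3 lists show where this mark lay in the mutant and in WT cells.

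The peak lists differed more between the WT libraries than between the genotypes. The lists held 34154 peaks in del-cIDR replicate 1, 37789 in del-cIDR replicate 2, 20895 in WT replicate 1 and 41183 in WT replicate 2. WT replicate 1 was the shortest list and WT replicate 2 the longest, with both del-cIDR lists between them. The del-cIDR lists averaged 35971.5 ± 2570 peaks and the WT lists 31039 ± 14346 (± SD of 2 libraries per genotype, two-sided exact permutation p = 1). Covered length, the sum of peak widths, was 25.1, 33.1, 9.85 and 29.6 Mb in the same order of libraries. The del-cIDR mean of 29.1 ± 5.63 Mb and the WT mean of 19.7 ± 14.0 Mb did not separate (exact permutation p = 0.667). With 2 libraries on each side that test cannot go below 0.333. Without WT replicate 1 the log2 ratio of del-cIDR over WT went from 0.29 to -0.20 for peak number and from 0.76 to -0.038 for covered length. The direction of both differences therefore rested on that library.

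**Figure D1:**
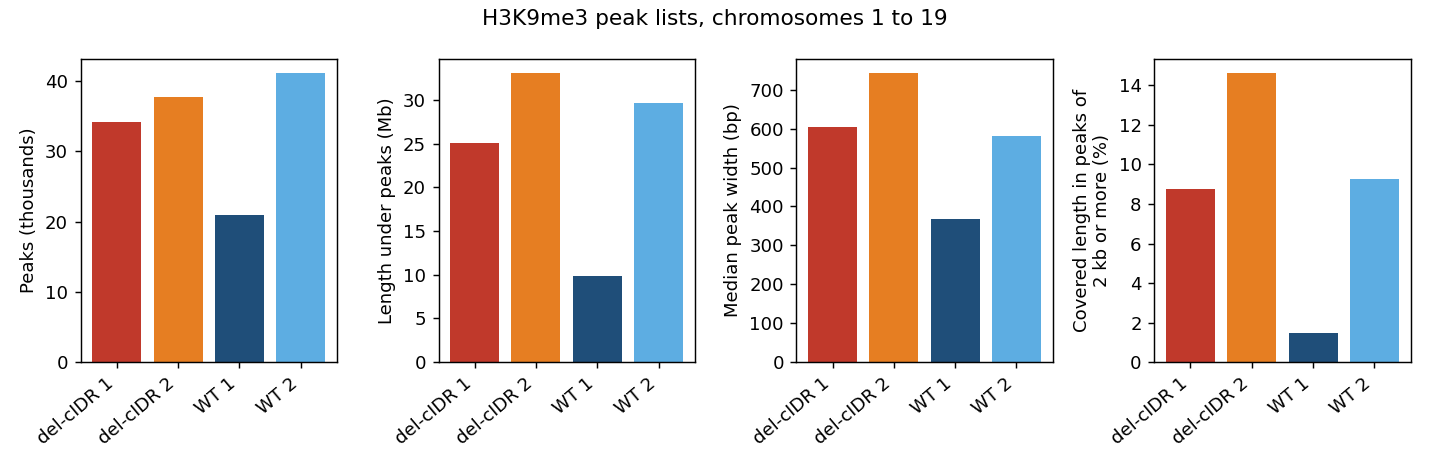
Number of H3K9me3 peaks (in units of 1000), length under peaks (Mb), median peak width (bp) and the percent of covered length in peaks of 2 kb or more, one bar per library. WT replicate 1 has the lowest bar in every panel, while WT replicate 2 has the highest peak number and lies near the del-cIDR libraries in the other panels.

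Peaks were also narrowest in WT replicate 1. The median width in the del-cIDR libraries was 605 bp and 743 bp, with 369 bp in WT replicate 1 and 580 bp in WT replicate 2. Both del-cIDR medians were above both WT medians (674 ± 97.6 bp against 474.5 ± 149 bp, ± SD of 2, exact permutation p = 0.333), but del-cIDR replicate 1 and WT replicate 2 were close. Peaks shorter than 300 bp made up 25.4%, 19.3%, 42.5% and 27.9% of the 4 lists in the same order. Wide peaks, here those of 2 kb or more, numbered 952 and 2053 in del-cIDR, 65 in WT replicate 1 and 1180 in WT replicate 2. They held 8.73%, 14.6%, 1.49% and 9.24% of the covered length, so the genotypes overlapped (11.7% ± 4.16 against 5.37% ± 5.49, ± SD of 2, exact permutation p = 0.667). Few peaks were strong: 2.04%, 2.58%, 1.76% and 1.86% of the lists reached a −log10 q of 5, q being the peak caller's adjusted p-value.

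Most H3K9me3 regions were either common to all libraries or present in a single one. Merging every set of peaks that shared 1 bp or more gave 56846 regions, of which 14034 (24.7%) had a peak in all 4 libraries. Another 8350 (14.7%) had a peak in every library but WT replicate 1, far more than the 587, 422 and 1041 regions missed only by WT replicate 2, del-cIDR replicate 2 and del-cIDR replicate 1. Single libraries alone held 4933 and 6692 regions in del-cIDR, 2071 in WT replicate 1 and 9757 in WT replicate 2. The 2 del-cIDR libraries alone, without WT, had peaks at 2344 regions (4.12% of those compared), and the 2 WT libraries alone at 566 (0.996%).

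The same 4 libraries can be paired in other ways, and with all deposited peaks the genotype sum lay between those of the mixed pairings. The libraries del-cIDR replicate 2 and WT replicate 2 alone shared 3543 regions, more than the del-cIDR pair, and del-cIDR replicate 1 and WT replicate 2 alone shared 1826. The pairs that held WT replicate 1 were small, with 448 regions for it and del-cIDR replicate 2 and 232 for it and del-cIDR replicate 1. By genotype the pairs summed to 2910, against 2274 and 3775 for the pairings that mix the genotypes. The order of the del-cIDR and WT counts also depended on list length. With every list cut to the 20895 strongest peaks by p-value, del-cIDR alone held 1698 regions and WT alone 1199, 2897 by genotype against 2476 and 2623 in the mixed pairings. The genotype sum was then above both mixed sums. With every list cut to an equal covered length, the order turned, with 697 regions for del-cIDR alone against 1735 for WT alone. The genotype sum there, 2432, again lay between the mixed sums, 2014 and 2470. In that setting WT replicate 1 kept its full list of 20895 peaks and the others 10822 to 12731. Leaving out WT replicate 1 gave 2933 regions for del-cIDR and 10407 for WT, and leaving out WT replicate 2 gave 10690 and 3035. Leaving out del-cIDR replicate 1 gave 9483 and 1042, and leaving out del-cIDR replicate 2 gave 8289 and 1686. A single library then stands for a genotype, so unreplicated peaks enter the count.

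**Figure D2:**
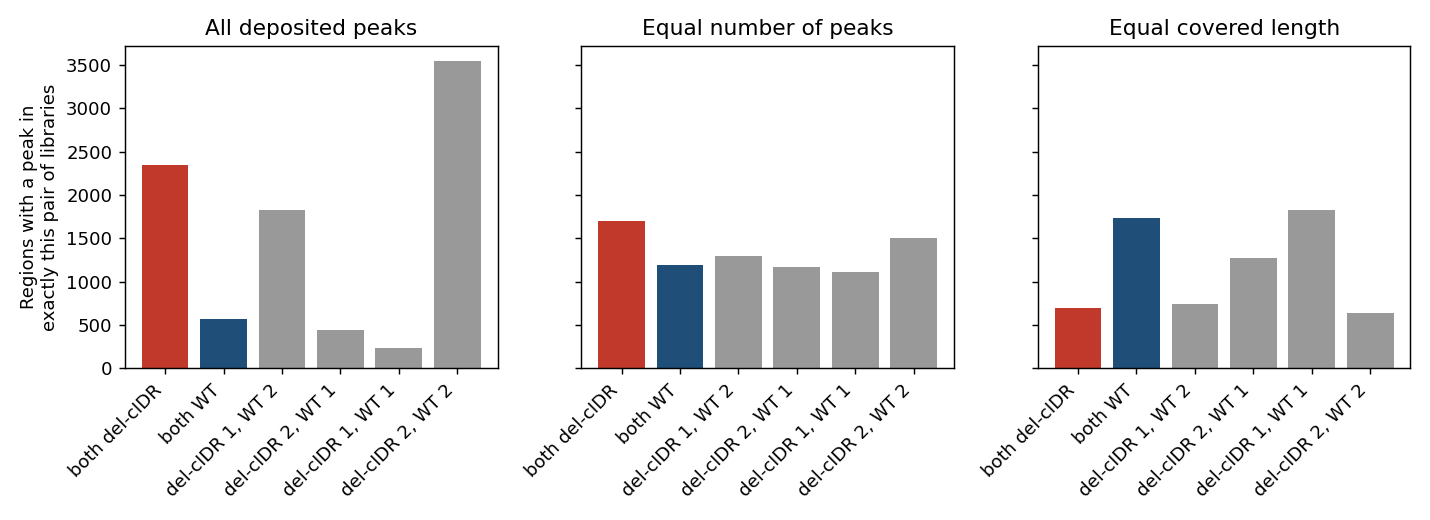
Number of regions with a peak in exactly 2 libraries, for each of the 6 pairs, with all deposited peaks, with lists of equal number and with lists of equal covered length. With all peaks the pair of replicate 2 libraries (3543) exceeds the del-cIDR pair (2344), and at equal covered length the WT pair (1735) exceeds the del-cIDR pair (697).

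Measured from single lists, sharing depended mainly on which list was asked. Of the peaks of WT replicate 1, 72.1% overlapped del-cIDR replicate 1, 79.3% del-cIDR replicate 2 and 77.3% WT replicate 2. In the opposite direction WT replicate 1 held a peak at 42.0%, 41.0% and 37.4% of the peaks of those 3 lists. Between the del-cIDR libraries the shares were 76.1% of replicate 1 and 66.9% of replicate 2. For WT replicate 2 with del-cIDR replicate 2 they were 67.8% and 71.8%, so a library of the other genotype matched as well as the replicate. Among the 1000 peaks of each list with the lowest p-values sharing was higher, at 69.7% to 90.1% over all pairs. In the strongest 25% of each list by p-value 53.6%, 53.8%, 70.1% and 50.1% of the peaks overlapped all 3 other lists, and in the weakest 25% the shares were 19.2%, 12.8%, 47.5% and 10.3%.

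Regions called only in 1 genotype were short. Their median length under peaks was 491 bp for del-cIDR alone and 357 bp for WT alone, against 993 bp for regions of all 4 libraries, 501 bp for the pair of replicate 2 libraries and 419 bp for del-cIDR replicate 1 with WT replicate 2. The median fold enrichment over background, ranked within each list, lay at the 54.4th and 49.9th percentiles, beside the 55.4th for regions of all 4 libraries. No peak of the region reached a −log10 q of 2 in 50.5% of regions held by del-cIDR alone and in 56.7% of those held by WT alone, against 11.7% of the regions of all 4 libraries. Few lay beside a common region: 9.64% and 17.3% were within 5 kb of one, and 8.89% of the common regions were that near to another.

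The widest regions called only in del-cIDR were weak and broad. The leading one, chr2:181600864-181604144 (GRCm39, as all coordinates here, counted from 1), had 2569 and 2121 bp under peaks with folds of 2.55 and 2.46. Those at chr2:124945552-124948276 (1854 and 2725 bp) and chr11:30261285-30264147 (2863 and 1340 bp) had folds of 2.28 to 2.76. Next came chr13:64106474-64108599, with 1798 and 2126 bp and folds of 3.37 and 3.19, and chr4:22723425-22725792, with 2220 and 1575 bp. In WT the widest was chr11:3122087-3124150, close to the centromeric end, with 2064 bp in replicate 1 and 534 bp in replicate 2. It was followed by chr6:128766951-128768954, with 381 and 2004 bp, where 3 H3K27ac libraries also had a peak. The other 3 of the 5, chr8:73971055-73972302, chr19:39742828-39744177 and chr10:40540808-40542470, had 537 to 1350 bp in each WT library. Of these 10 regions, 9 overlapped no H3K27ac peak and none overlapped H3K4me3.

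Regions that ranked highest by fold were instead very short. In del-cIDR the first was chr6:135443041-135443227, with folds of 15.5 and 21.1 over 181 and 187 bp, and no peak in WT. It was followed by chr1:118667403-118667616, with 7.44 and 7.63, chr12:27641954-27642122, with 6.49 and 8.45, and chr4:73596439-73596664, with 6.97 and 6.87. In WT the first by rank was chr14:17598661-17598926, with folds of 7.25 and 6.64, and the next was chr5:81368045-81368213, with 5.34 and 14.2. The fifth del-cIDR region, chr12:18231472-18231686, and the fourth WT region, chr12:18223785-18223966, lie next to each other near 18 Mb of chromosome 12. That window was dense in H3K9me3 in every library, with 52.96, 56.7, 21.5 and 55.9 kb under peaks in del-cIDR replicates 1 and 2 and WT replicates 1 and 2. None of the 10 regions ranked highest by fold had a peak over 266 bp, and none overlapped H3K4me3 or H3K27ac.

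Width was then compared within the 14034 regions found in all 4 libraries. The median length under peaks per region was 1026 bp and 1265 bp in del-cIDR, 506 bp in WT replicate 1 and 1108 bp in WT replicate 2. WT replicate 1 was the narrowest library at 10035 regions (71.5%), and del-cIDR replicate 2 was the widest at 6417 (45.7%). A region covered at least 2 kb in 924 and 1831 cases in del-cIDR, in 77 in WT replicate 1 and in 1138 in WT replicate 2. To compare regions apart from these library-wide differences, log2 lengths were centred on each library's median. By limma with Benjamini-Hochberg adjustment 0 regions were wider and 0 narrower in del-cIDR at an adjusted p of 0.05 (0.0% of 14034 in each direction, lowest adjusted p = 0.943). At an unadjusted p of 0.05 limma gave 382 wider and 343 narrower regions, 5.17% in all.

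**Figure D3:**
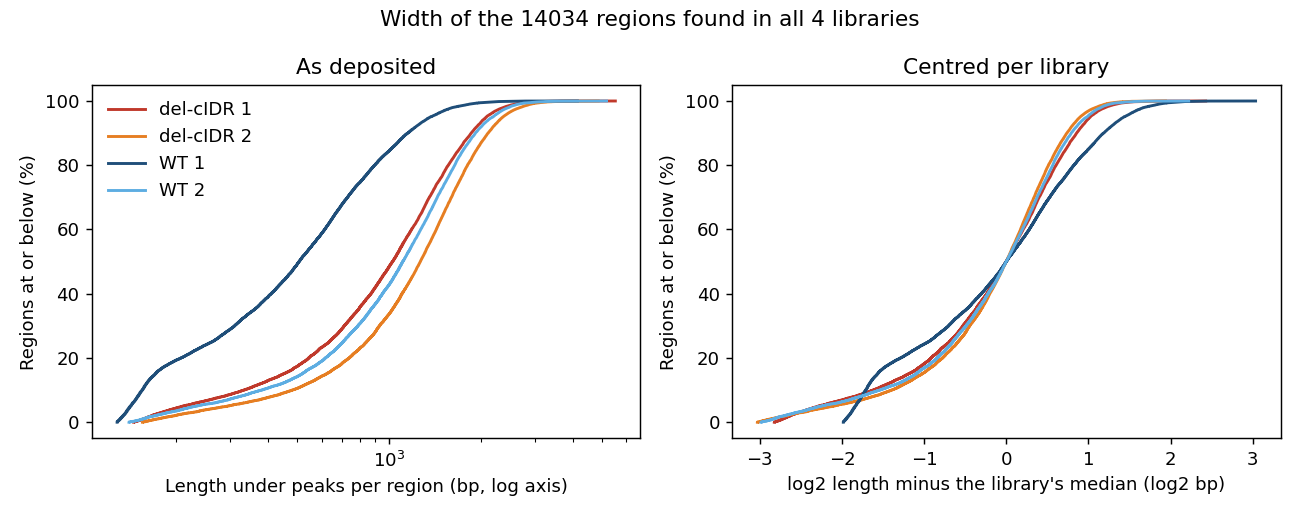
Cumulative percent of the 14034 shared regions against their length under peaks, as deposited (bp, log axis) and after centring on the library's median (log2 bp), one line per library. As deposited, the line of WT replicate 1 lies far to the left, with a median of 506 bp. After centring the 4 lines cross at 0 and that library keeps the flattest slope through the middle.

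Centred widths that did not overlap between genotypes were as common as under other pairings. Both del-cIDR libraries were wider than both WT libraries at 2148 regions (15.3%) and narrower at 2574 (18.3%). Without centring the counts were 4473 and 475, and by replicate number 301 regions were wider and 5483 narrower in the replicate 1 libraries. Pairing del-cIDR replicate 1 with WT replicate 2 gave 2142 regions where that pair was wider and 2139 where it was narrower, and pairing by replicate number gave 2990 with the replicate 1 libraries wider and 2041 with them narrower. Single libraries also differed in width: the median absolute log2 difference per region was 0.44 between the del-cIDR libraries, 0.76 between the WT libraries, and 0.43 between del-cIDR replicate 2 and WT replicate 2. More than a 2-fold difference in centred width was found at 19.4%, 36.9% and 18.7% of the regions in these 3 pairs.

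The regions with the largest separations show what such differences look like. At chr10:93189958-93192252 the peak was 1138 and 2295 bp long in del-cIDR and 145 and 162 bp in WT. The WT values are near the narrowest peaks of those lists, 128 and 140 bp, so the WT libraries held a minimal peak inside a longer del-cIDR peak. The same form was seen at chr14:96638055-96639611 (1138 and 1556 bp against 140 and 177 bp) and chr12:50705740-50707331 (934 and 1592 bp against 148 and 154 bp). In the other direction chr15:56993251-56995011 had 179 and 266 bp in del-cIDR and 1153 and 1110 bp in WT. At chr8:20059827-20060640 the values were 178 and 188 bp against 795 and 813 bp, and at chr1:188379082-188380626 they were 255 and 242 bp against 787 and 1467 bp. None of these passed after adjustment (limma, Benjamini-Hochberg). With peaks limited to a −log10 q of at least 2, 1985 shared regions were left and chr8:20059827-20060640 was the 1 region called narrower in del-cIDR (limma adjusted p = 0.0380). Its del-cIDR lengths were near the narrowest peaks of those lists, 145 and 155 bp. Its folds overlapped between genotypes, at 4.96 and 4.19 in del-cIDR and 3.96 and 4.56 in WT. The next shared region lay 530 bp away.

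Some regions were wide in every library. The widest, chr9:123728000-123734316, had 5516, 4847, 4144 and 5162 bp under 2 or 3 peaks in del-cIDR replicates 1 and 2 and WT replicates 1 and 2. At chr9:117808942-117812217 a single peak measured 3251, 3166, 3185 and 3212 bp in the same order, with folds of 2.67 to 3.13. Here WT replicate 1 lay within the range of the other libraries. At chr4:61489399-61494859 the values were 2775, 4514, 2628 and 3857 bp, in 2 or 3 peaks each, and at chr14:3050301-3053969, next to the centromeric end, they were 2597, 3188, 3075 and 2600 bp with higher folds of 4.74 to 5.24. Wide regions had low folds as a rule. The 242 shared regions with a mean length of at least 2 kb lay at a median fold percentile of 28.8, against 74.6 for the 1420 regions under 500 bp.

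Fragmentation, the division of a region into separate peaks, was more frequent in WT before the lists were put on a common footing. Of the 14034 shared regions, 1079 (7.69%) held 2 or more peaks in del-cIDR replicate 1, 542 (3.86%) in del-cIDR replicate 2, 1429 (10.2%) in WT replicate 1 and 1196 (8.52%) in WT replicate 2. No library had more than 3 peaks in a region. Both del-cIDR libraries were split and both WT libraries whole at 73 regions (0.52%), and the reverse held at 167 (1.19%). Pairs that mix the genotypes gave 178, 61, 134 and 63 such regions, so the WT count was within their range. Longer regions were split more often, at 43.8%, 23.5%, 43.5% and 46.2% of the 400 regions that spanned 3 kb or more.

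The distance at which neighbouring peaks were joined differed between the deposited lists and moved with these counts. The smallest gap between peaks was 581 and 623 bp in del-cIDR and 515 and 562 bp in WT, 4.01 to 4.02 times the narrowest peak of the same list. A gap that splits a region in a WT list could thus be bridged in a del-cIDR list. When peaks closer than or at 623 bp were joined in every list, a choice made after seeing the data, the split shares became 6.45%, 4.29%, 6.99% and 6.17%. Regions split only in WT then numbered 101 and those split only in del-cIDR 86, a difference of 15 regions in place of 94. In the deposited lists, leaving out WT replicate 1 gave 116 regions split in del-cIDR alone and 1061 in WT alone, and leaving out WT replicate 2 gave 31 and 1031. Leaving out del-cIDR replicate 1 or 2 gave 252 against 220 and 463 against 143. In all 4 of these settings the genotype left with 1 library needs a split in that library only. Its count is thus favoured by construction, and the order of the counts shows no direction.

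**Figure D4:**
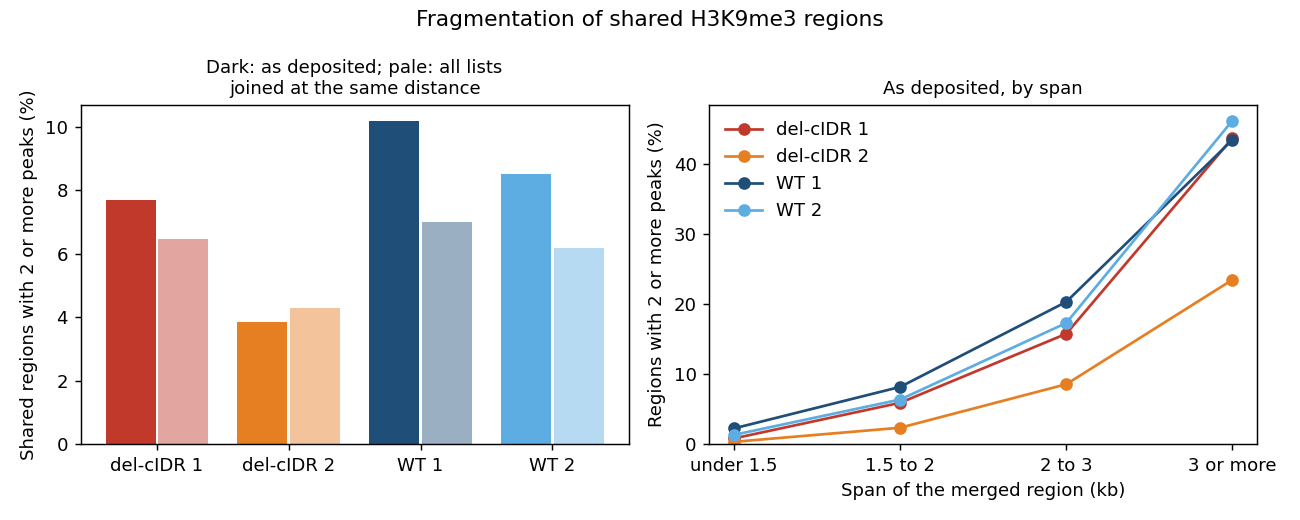
Percent of shared regions that hold 2 or more peaks, per library as deposited (dark) and after joining all lists at the same distance (pale), and by span of the region (kb). The range over the 4 libraries narrows from 3.86% to 10.2% as deposited to 4.29% to 6.99% after joining, and splitting rises with span in each library.

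Regions split in 1 genotype did not always have less length under peaks there. At chr3:106161900-106165423 the del-cIDR libraries had 1 peak each with 2962 and 2318 bp, and the WT libraries 2 peaks each with 1598 and 1835 bp. At chr2:87550096-87553735 single del-cIDR peaks of 2325 and 3640 bp stood against 2 WT peaks of 605 bp together and 3 of 1923 bp. In the other direction chr5:110055962-110059773 had 2 and 3 peaks in del-cIDR with 2998 and 2170 bp, and 1 peak each in WT with 957 and 3572 bp. At chr8:11930872-11934270 there were 2 peaks in both del-cIDR libraries, with 2231 and 1801 bp, and 1 in both WT libraries, with 1281 and 2435 bp.

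On a larger scale nearly all H3K9me3 domains held peaks in both genotypes. Peaks of the 4 libraries within 5 kb of each other were stitched into domains, and 503 domains spanned 10 kb or more. Of these, 452 had a peak in all 4 libraries, 1 was found in del-cIDR alone and 1 in WT alone. Domains were built from the pooled peaks of all 4 libraries, so holding a peak of each genotype is favoured by that definition. Each domain held a mean of 3.18 and 3.28 peaks in del-cIDR, 2.30 in WT replicate 1 and 3.59 in WT replicate 2. Peaks filled a median of 15.1% and 20.6% of the domain in del-cIDR, and 7.32% and 18.5% in WT. The longest domain, chr4:60316282-60391064, spanned 74.8 kb and held 23, 22, 18 and 20 peaks with 14464, 18825, 5914 and 14113 bp in del-cIDR replicates 1 and 2 and WT replicates 1 and 2, and no H3K4me3 or H3K27ac peak in any library. The next, chr12:19855393-19895573, held 12, 13, 12 and 17 peaks. At chr9:3000019-3038288, the first sequence of that chromosome with peaks, the same order gave 8344, 8602, 9152 and 8690 bp, with WT replicate 1 the highest. At chr7:9324995-9352886 the del-cIDR libraries had 7 peaks each with 3741 and 3912 bp, WT replicate 2 had 9 peaks with 2333 bp, and WT replicate 1 had none.

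Along the genome the clearest separation of the genotypes was by chromosome. Each chromosome's share of the covered length was compared, which sets aside differences in total length. Chromosome 8 held 5.20% and 5.20% in del-cIDR against 7.26% and 6.09% in WT, chromosome 6 held 6.40% and 6.49% against 8.11% and 7.46%, and chromosome 12 held 4.52% and 4.63% against 5.44% and 5.08%. Both del-cIDR values lay below both WT values on these 3 chromosomes (15.8% of 19) and above both on 13 others (68.4%). In log2 the 3 lower chromosomes were at -0.36, -0.27 and -0.20, and without WT replicate 1 at -0.23, -0.21 and -0.15. With lists cut to equal covered length, a choice made after seeing the data, the same 3 chromosomes were lower without overlap, at -0.37, -0.38 and -0.18, and 11 were higher. With a −log10 q of at least 5, which left 367 to 976 peaks per list, chromosomes 6 and 12 turned, to 0.13 and 0.33, and overlapped, while chromosome 8 stood at -0.77. Chromosome 9, among the higher ones with all peaks, was then lower without overlap, at -0.61. Pairing del-cIDR replicate 1 with WT replicate 2 separated the pairs on 1 chromosome, and pairing by replicate number on 2. The 13 higher chromosomes are tied to the 3 lower ones, since shares sum to the whole. Over the other 16 chromosomes alone del-cIDR was higher on 3 (chromosomes 1, 3 and 13) and lower on 7, with log2 ratios from -0.08 to 0.05. There the pair of del-cIDR replicate 1 and WT replicate 2 was higher on 2 and lower on 0. The replicate 1 libraries were higher on 0 and lower on 4. By share of peak number over all 19, del-cIDR was higher without overlap on 9 and lower on 4, chromosome 11 among the lower. For the other marks only these 3 chromosomes were compared, and their shares were lower in del-cIDR there too. How many of the 19 chromosomes separate the genotypes in those marks was not counted, so these 3 may not stand out. On chromosome 6 the share was 5.14% and 5.13% in del-cIDR against 5.44% and 5.45% in WT for H3K4me3, and 5.65% and 5.69% against 6.59% and 6.72% for H3K27ac. Both del-cIDR libraries lay below both WT libraries on chromosomes 8 and 12 too, with log2 ratios of -0.08 and -0.07 for H3K4me3 and -0.13 and -0.21 for H3K27ac. Whether chromosome copy number differed between the lines was not tested.

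**Figure D5:**
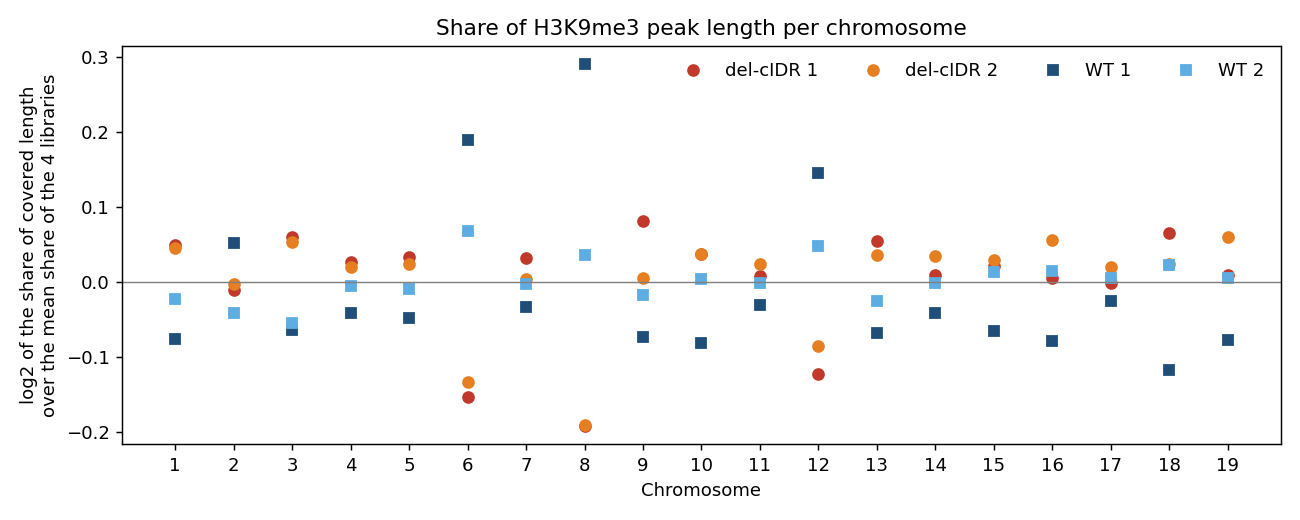
Share of H3K9me3 covered length on each chromosome, as log2 of the share over the mean of the 4 libraries (circles, del-cIDR; squares, WT). Both circles lie below both squares on chromosomes 6, 8 and 12, and WT replicate 1 is farthest from 0 there.

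Genotype-specific regions followed the same lines. On chromosomes 6, 8 and 12, del-cIDR alone held 265 regions and WT alone 165, a ratio of 1.61, and on the other 16 chromosomes they held 2079 and 401, a ratio of 5.18. Chromosome 8 had the lowest share of del-cIDR-only regions, 2.14% of its 3034 regions, and the highest of WT-only regions, 1.78%. Chromosome 19 had 47 del-cIDR-only and 2 WT-only regions among 1189. These values come from the same peaks as the chromosome shares and are a description of them.

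Windows of 1 Mb gave a finer view. In each window the length under peaks was scaled to 10 Mb of covered length per library, and log2 of that value plus 1000 bp was compared over the 2256 windows with a mean of at least 1000 bp. With limma and Benjamini-Hochberg adjustment 0 windows were higher and 0 lower in del-cIDR (0.0% each way, lowest adjusted p = 0.729), and at an unadjusted p of 0.05 limma gave 76 and 69. Leaving out either del-cIDR library also gave 0 and 0. With WT replicate 1 left out 3 were higher and 1 lower, and with WT replicate 2 left out, so that replicate 1 stood alone for WT, 336 were higher and 204 lower. In such fits the lone library is assumed to vary like the pair of the other genotype. Values that did not overlap between genotypes were found at 486 windows (21.5%) with del-cIDR higher and 385 (17.1%) with del-cIDR lower. The mixed pairings gave fewer in total, 316 and 298 with del-cIDR replicate 1 and WT replicate 2 paired, and 360 and 411 by replicate number. On chromosomes 6, 8 and 12 del-cIDR was lower without overlap in 176 of 369 windows (47.7%) and higher in 8. On the other chromosomes it was lower in 209 of 1887 (11.1%) and higher in 478 (25.3%). The median log2 difference, del-cIDR minus WT, was -0.21 on the former and 0.06 on the latter, and -0.17 and 0.03 without WT replicate 1. Chromosomes 6, 8 and 12 were singled out by their lower share of the same covered length. A surplus of lower windows there follows from that choice and is no separate result. Because windows were scaled to each library's total covered length, higher windows elsewhere are partly tied to the lower ones. The mixed pairings were not counted by chromosome.

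The windows with the largest separations were of different kinds. The window that starts at 20 Mb of chromosome 8 was among the 10 windows with the most H3K9me3 in their lowest library, with 23.3 and 25.6 kb under peaks in del-cIDR and 25.2 and 35.2 kb in WT, in 36, 35, 54 and 52 peaks. Relative to each library's covered length, del-cIDR was lower by a log2 difference of -0.97 (SE 0.31, limma adjusted p = 0.729). That value was -0.44 (limma adjusted p = 0.618) without WT replicate 1 and -1.49 (limma adjusted p = 3.66e-08) without WT replicate 2, and -0.37 (limma adjusted p = 0.883) at equal covered length. At 64 Mb of chromosome 13 the lengths were 10.7 and 11.5 kb in del-cIDR against 2.14 and 4.32 kb in WT, in 10, 10, 6 and 11 peaks, so del-cIDR was higher in length also before scaling (log2 difference 0.80, SE 0.20, limma adjusted p = 0.729). Without WT replicate 1 this difference was 0.98 (limma adjusted p = 0.0271), and without WT replicate 2 it was 0.61 (limma adjusted p = 0.0120). By number of peaks it was 0.0056 (limma adjusted p = 0.995), with a −log10 q of at least 2 it was 0.098 (limma adjusted p = 0.970), and with at least 5 it turned, to -0.45 (limma adjusted p = 0.879). This is the window that holds chr13:64106474-64108599, among the widest regions called only in del-cIDR. At 107 Mb of chromosome 12 the lengths were 2.48 and 2.97 kb against 1.87 and 7.39 kb, in 3, 6, 4 and 12 peaks, a log2 difference of -0.71 (SE 0.19, limma adjusted p = 0.729). This was -0.85 (limma adjusted p = 0.0375) without WT replicate 1 and -0.58 (limma adjusted p = 0.0164) without WT replicate 2, and it turned to 0.17 (limma adjusted p = 0.962) with a −log10 q of at least 2. At 75 Mb of chromosome 18 they were 7.08 and 11.1 kb against 0.397 and 5.66 kb, a log2 difference of 1.01 (SE 0.31, limma adjusted p = 0.729), with WT replicate 1 the lowest. This was 0.49 (limma adjusted p = 0.561) without WT replicate 1 and 1.54 (limma adjusted p = 2.51e-08) without WT replicate 2.

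Distance from the centromere separated the genotypes less. Mouse chromosomes carry the centromere at the start of the sequence, and the first peak lay at 3.00 to 3.08 Mb on every chromosome. The first 10 Mb held 8.52% and 8.48% of the covered length in del-cIDR, 7.47% in WT replicate 1 and 8.32% in WT replicate 2. The del-cIDR libraries were higher than both WT libraries (8.50% ± 0.0241 against 7.90% ± 0.604, ± SD of 2, exact permutation p = 0.333), by 0.61 percentage points, and by 0.18 without WT replicate 1. The difference was 0.31 in lists of equal number and 0.064 in lists of equal covered length (exact permutation p = 0.667 in both). In the first 5 Mb it was 0.073, and the genotypes overlapped, at 2.54% and 2.49% against 2.33% and 2.56% (exact permutation p = 1). With each chromosome divided into 10 equal bins, H3K9me3 was densest in bin 2, at 12.7%, 12.3%, 12.4% and 12.5% of the covered length in del-cIDR replicates 1 and 2 and WT replicates 1 and 2. It was sparsest in bin 8 or 9, and 10.2% to 11.2% lay in bin 10, at the far end. In bin 1 the values were 11.99%, 11.9%, 10.7% and 11.8%. Regions called only in del-cIDR were spread in nearly the same way, with 12.2% in bin 1 and 10.4% in bin 10, against 11.02% and 10.6% of the regions found in all 4 libraries.

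Active marks were rare at H3K9me3 regions of every kind. Of the regions found in all 4 H3K9me3 libraries, 151 (1.08%) overlapped an H3K4me3 peak and 459 (3.27%) an H3K27ac peak of at least 1 library, and 13505 (96.2%) overlapped neither. Regions called only in del-cIDR overlapped H3K4me3 in 50 cases (2.13%) and H3K27ac in 99 (4.22%), and those called only in WT in 7 (1.24%) and 24 (4.24%). For pairs that mix the genotypes the shares were 1.10% to 1.79% for H3K4me3 and 2.35% to 3.67% for H3K27ac. Few of these overlaps had the active mark in both libraries of 1 genotype and in neither library of the other. At the 50 del-cIDR-only regions H3K4me3 was present in all 4 of its libraries at 14, only in WT at 5 and only in del-cIDR at 0, and in a single library, which shows no direction, at 19. At the 99 with H3K27ac, that mark was in all 4 libraries at 26, only in del-cIDR at 7, only in WT at 5 and in a single library at 44. At the 24 WT-only regions with H3K27ac, that mark was in all 4 libraries at 4. It was only in del-cIDR at 2, only in WT at 1 and in a single library at 11.

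A cluster of H3K9me3 peaks near 20 Mb of chromosome 8, described here after its values were seen, shows equal and unequal regions side by side. The domain chr8:20040823-20070012 held 9 regions, and at 5 of them all 4 H3K9me3 libraries had a peak. At chr8:20056859-20057262 the lengths were 384, 404, 371 and 385 bp, and at chr8:20065310-20066136 they were 774, 827, 802 and 770 bp, nearly equal in the 4 libraries. At chr8:20061171-20062330 H3K9me3 measured 1144, 1021, 1114 and 1127 bp, and H3K4me3 and H3K27ac had peaks in all their libraries as well. Between these, chr8:20051712-20052346 had H3K9me3 in both WT libraries (604 and 144 bp) and in neither del-cIDR library, and H3K27ac in both del-cIDR libraries and in neither WT library. Such an opposite pair of marks was rare: of the 566 WT-only regions, 24 overlapped H3K27ac and 2 had it only in del-cIDR. The region chr8:20059827-20060640, narrow in del-cIDR, overlapped H3K27ac in del-cIDR replicate 2 alone. Over the whole domain H3K27ac covered 3399 and 3577 bp in del-cIDR and 2032 and 2443 bp in WT, and H3K9me3 4135 and 4558 bp against 4685 and 5733 bp. The genotypes did not overlap in either mark there, which with 2 libraries each has no test below p = 0.333 by exact permutation. These lengths are not scaled to list length, and the length of the H3K27ac lists is not given here. In the 1-Mb window that holds the domain, H3K27ac covered 17.5 and 21.8 kb in del-cIDR and 14.3 and 13.7 kb in WT. Some other named windows had the same order without overlap, and in others the genotypes overlapped. More H3K27ac in del-cIDR is thus not particular to this domain.

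The strongest sites were short peaks chosen here for a high fold in every library: at 35 shared regions it was at least 10 in all 4. At chr6:103626009-103626254 it was 37.3 and 36.6 in del-cIDR and 40.7 and 38.2 in WT, with 243 to 245 bp under the peak. At chr12:3159872-3160121 it was 39.3, 36.5, 42.3 and 39.05, with 250 bp in each library. At chr9:35216512-35216887, which also carried H3K27ac in all 4 of its libraries, the folds were 24.3, 24.4, 25.2 and 24.3. These 3 peaks were within 2 bp of the same length in every library, WT replicate 1 included. Others were less alike, such as chr15:41442425-41442587, with folds of 18.95, 17.6, 18.8 and 26.1, and chr6:147138146-147138453, with 268, 244, 268 and 304 bp. Of the 14034 shared regions, 19 had a peak in all 12 libraries of the series.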

How the data were processed

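Peak lists of 4 H3K9me3 CUT&RUN libraries (2 per genotype) were analysed, with 8 H3K4me3 and H3K27ac CUT&Tag lists for overlaps. Per the submitters' processing notes the build was GRCm39 and the tools included MACS2, BWA, Picard and SAMtools, besides fastp and featureCounts. Not given in the sources used here are their versions, their settings and any control library. The authors deposited separate peak lists for each library. The deposited columns give each peak's fold enrichment, a ratio within its library, and its −log10 p and −log10 q, all the authors' values. The weakest deposited H3K9me3 peaks had a −log10 q of 1.00, and sites below are not listed. Read depth is unknown.

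Peaks on X, Y and all other sequences outside chromosomes 1 to 19 were left out. Peaks were merged in Python 3.11.15. Library values were compared with two-sided exact permutation tests, and shared-region widths and 1-Mb windows with limma 3.58.1 (R 4.3.3) with Benjamini-Hochberg adjustment; scripts were tested on simulated data. A log2 length in bp is not a count, and limma treats it as roughly normal. Counts by pattern of libraries, by genotype and by mixed pair, are descriptions without a test.

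The regions named are, per genotype or direction, the 5 widest and the 5 highest by mean fold percentile among those called in 1 genotype, the 5 with the largest separation of centred width, the 5 longest split in 1 genotype, the 5 widest in all 4 libraries, and the 5 windows with the largest separation, of which the text gives a part. Comparisons, rules and lists were chosen with earlier results of these data known. Alternatives were a −log10 q of at least 2 or 5, lists cut to equal number or covered length, merging within 1000 bp, 50% coverage of the region, leaving out each library, a replicate block, array weights, quantile normalisation and other window settings. Joining all lists at one distance and leaving out chromosomes 6, 8 and 12, and every alternative for chromosome shares, were chosen after seeing the data. The gene table at hand is of another build (GRCm38.p6), so no genes or sequences are given.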

Additional observations from a re-analysis of the deposited data

How the results depend on the processing

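Of 163 comparisons with an alternative, 119 kept their direction, or a count within 1.5 times. Values compared by exact permutation were scored by direction alone. Limma counts of 0 in both settings were scored as kept, so this total does not measure how stable the results are. Peak number cut to equal number and covered length cut to equal length are equal by construction and give no value. The log2 ratio of peak number, 0.29, was -0.48 at equal covered length and -0.20 to 0.78 with 1 library left out, and that of covered length, 0.76, was -0.038 to 1.55. With a −log10 q of at least 5, 367 to 976 peaks per list remained, the difference in the share of wide peaks was -0.37 percentage points and that in the first 10 Mb -4.50. Regions called only in del-cIDR, 2344, numbered 98 with that minimum, 697 at equal covered length, 4078 with peaks over 50% of the region, and 2933 to 10690 with 1 library left out. Regions called only in WT, 566, numbered 320 with a −log10 q of at least 2, 13 with 5, 1199 at equal number, 1735 at equal covered length, and 1042 to 10407 with 1 library left out. Shared regions split only in del-cIDR, 73, numbered 3, 0, 7, 2 and 205 for a −log10 q minimum of 2, a minimum of 5, equal number, equal covered length and merging within 1000 bp, and 31 to 463 with 1 library left out. Those split only in WT, 167, numbered 8, 1, 55 and 19 in the first 4 of these settings, 101 with lists joined at one distance, and 143 to 1061 with 1 library left out. By limma 3 shared regions were wider with a −log10 q of at least 5 and 1 narrower with at least 2. Stricter minimums and shorter lists leave fewer shared regions by construction. With 1 library left out, the genotype left with 1 library has its counts favoured by construction. Otherwise the cause was not tested.

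Windows called by limma with 1 library left out numbered 0 to 336 higher and 0 to 204 lower. The labels give both genotypes replicates 1 and 2 but no shared batch. Deviations of same-numbered libraries correlated with Pearson's r = 0.02 over widths and 0.09 over windows, across features of 2 pairs. With the replicate block limma called 2 windows higher and 2 lower, among them those at 75 Mb of chromosome 18, 20 Mb of chromosome 8 and 18 Mb of chromosome 14 (limma adjusted p = 0.0151 each), and 0 regions wider or narrower. Chromosomes without overlap, 13 higher and 3 lower, numbered 4 and 2 at the −log10 q minimum of 5, 10 to 13 and 3 in the other list settings, and 13 to 15 and 3 to 4 with 1 library left out. Of 247 comparisons for named windows, regions and chromosomes, 224 kept direction and side of the threshold or moved by less than the spread between replicates. This total does not measure stability either. Named windows, and regions named for width, were chosen as not overlapping between genotypes, which favours a kept direction with 1 library left out. None passed the threshold in the main setting, so a kept side mostly means that none passed again. The window at 64 Mb of chromosome 13 turned to -0.45 with a −log10 q of at least 5, and that at 107 Mb of chromosome 12 to 0.17 with at least 2. The log2 shares of chromosomes 6 and 12 turned to 0.13 and 0.33 with at least 5. Read depth is unknown, so a missing peak may be a site below the deposited limit.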
